A study of Mus musculus with 9 samples.

Results

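The interleukin-6 (IL-6) family and the colony stimulating factors were followed through 10 genes in 3T3-L1 adipocytes: the ligands Il6, Lif, Il11, Csf1, Csf2 and Csf3, the receptor chains Il6st, Lifr and Osmr, and the feedback inhibitor Socs3. They were taken by symbol, as every probe set annotated to exactly 1 of these symbols, which gave 23 of the 45037 probe sets tested and 10 of 18193 genes. 3T3-L1 is a mouse preadipocyte line, derived from embryonic fibroblasts, that turns into fat cells in culture. All 3 groups were adipocytes of this line, so they are cultures of a single line and not animals. One group received linoleic acid (LA) and served as the control, another received conjugated linoleic acid (CLA), and the third received phenformin. LA and CLA are isomers that differ in the position and geometry of their double bonds, and phenformin is a biguanide that slows mitochondrial respiration and thereby activates AMP-activated protein kinase. Each group had 3 arrays, described in the labels as biological replicates. The labels used here state no dose, no duration and no isomer of CLA, nor whether LA was present in the phenformin cultures, so the treatments cannot be taken as matched. The series asked how AMP-activated protein kinase and prostaglandins take part in the answer of adipocytes to CLA.

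Cytokines of the IL-6 family share the receptor chain gp130, the product of Il6st, which pairs with a further chain that recognises the ligand, such as the LIF receptor (Lifr) or the oncostatin M receptor (Osmr). Bound receptors activate JAK kinases, these phosphorylate STAT3, and STAT3 switches on Socs3, whose product binds gp130 and shuts the signal off. The colony stimulating factors act on myeloid cells: Csf1 on macrophages through the receptor kinase Csf1r, Csf2 through the common beta chain Csf2rb, and Csf3 on neutrophils through Csf3r. Fat cells and their precursors can secrete IL-6 and Csf1, and ligands of the gp130 family are known to act on adipocytes.

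With CLA, 8 of the 10 genes rose (Il6, Lif, Csf1, Csf3, Il6st, Lifr, Osmr and Socs3), where 12.6% of all genes did. With phenformin, 4 rose (Il6, Csf1, Il6st and Lifr), where 13.7% of all genes did. The 10 genes were chosen with earlier results of these data known, so the shares of all genes are given for scale only. For Il6, Il6st and Lifr no difference between phenformin and CLA passed the test. Between these treatments 5 of the 10 were lower with phenformin, where 2.35% of all genes were: Lif, Osmr and Socs3 were lower with phenformin than with CLA by 2.16-fold, 2.86-fold and 3.14-fold, and Csf1 and Csf3 by 1.45-fold and 1.57-fold. The Csf1 difference lost its call in 6 of 18 alternative settings and the Csf3 difference in 10 of 17. Csf3 has 17 because a filter to brighter probe sets removed it as too dim. Without CLA replicate 1, phenformin replicate 1 or phenformin replicate 3 the count of 5 became 3. Neither Il11 nor Csf2 passed the test in any comparison.

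All levels below are on the log2 scale of the arrays. Where a gene had several probe sets, the brightest was taken for it. Levels of a group carry the SD over its n = 3 arrays, differences are log2 fold changes ± SE, and a gene is called where limma's adjusted p is under 0.05. In bulk samples such as these, fewer cells of a type and less RNA per cell cannot be told apart. Correlations between arrays over all probe sets lay between 0.986 and 0.996 within groups and between 0.963 and 0.991 across them. LA replicate 3 had the narrowest range, its percentile 99 being 11.63 where the remaining arrays reached 12.20 to 12.48; without it the counts of called members were 8 for CLA against LA, 4 for phenformin against LA and 5 for phenformin against CLA, the same as with it. Control probe sets for the 3' and 5' ends of beta-actin differed by 1.28 ± 0.39 in LA, 0.53 ± 0.10 in CLA and 0.56 ± 0.09 in phenformin, and those of pyruvate carboxylase by 5.35 ± 0.43, 4.02 ± 0.63 and 3.95 ± 0.60. This measure of RNA or target length therefore moved with treatment, and its part in the results was not tested beyond the fit with pyruvate carboxylase as a covariate.

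Defining markers of the labelled cell type were far above background, with Adipoq (adiponectin) at 14.00 ± 0.43 in LA, 14.07 ± 0.07 in CLA and 14.14 ± 0.06 in phenformin, and Fabp4 (the fatty acid binding protein of fat cells) at 14.14 ± 0.54, 14.54 ± 0.07 and 14.49 ± 0.06. Over 8 adipocyte markers the mean level was 11.43 to 11.92 on the LA arrays, 11.49 to 11.55 with CLA and 11.82 to 11.89 with phenformin. On all 3 CLA arrays 1 of the 8 was at background, where 0 were on all 3 arrays of LA or phenformin. Of the 8, 1 rose and 2 fell with CLA while 2 rose and 0 fell with phenformin. Among all genes 12.6% were called higher and 7.58% lower with CLA, and 13.7% and 5.11% with phenformin. Pparg, the master regulator of fat cells, and Retn, the hormone resistin, fell with CLA by 1.25 ± 0.19 (adjusted p = 0.00122) and 0.62 ± 0.12 (adjusted p = 0.00563). Cidec, a lipid droplet protein, rose by 0.98 ± 0.16 with CLA (adjusted p = 0.00227) and by 0.77 ± 0.16 with phenformin (adjusted p = 0.0094), and Slc2a4, the insulin-dependent glucose transporter, rose by 1.06 ± 0.19 with phenformin (adjusted p = 0.00362). Markers of preadipocytes and fibroblasts moved with the treatments: 7 of 9 rose with CLA and 6 of 9 with phenformin, and their mean level was 8.80 to 9.13 in LA, 10.20 to 10.51 in CLA and 9.93 to 10.30 in phenformin. Pdgfra, a receptor of fibroblasts and fat cell precursors, was at 8.94, 8.97 and 10.16 on the LA arrays, 11.85, 11.34 and 11.49 with CLA and 11.60, 11.48 and 11.32 with phenformin. Cd34 of that list was at background on all 9 arrays. The part of these markers in the results below was not tested.

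Markers of blood and vessel cells were counted as well, beside 12.6% of all genes called higher and 7.58% lower with CLA, and 13.7% and 5.11% with phenformin. Of 11 macrophage markers, 1 rose and 1 fell with CLA and 3 fell with phenformin, with a mean level of 4.78 to 4.88 in LA, 4.80 to 4.97 in CLA and 4.64 to 4.70 in phenformin. Ptprc, the pan-leukocyte marker CD45, and Itgam and Mrc1 of macrophages lay at or under the background level on all 9 arrays, a level set per array at the 95th percentile of 27 control probe sets (3.68 to 4.20). The other macrophage markers were not at background on all 9 arrays. Among them, Csf1r had means of 6.53 in LA, 6.53 in CLA and 6.49 in phenformin. Adgre1, a surface marker of mature macrophages, was at 3.80 ± 0.08 in LA, 3.41 ± 0.17 in CLA and 3.40 ± 0.11 in phenformin. Of 7 lymphocyte markers none was called by limma in the comparisons with LA (2 had an unadjusted p under 0.05 in each), with a mean level of 4.86 to 5.26 in LA, 4.77 to 4.95 in CLA and 4.71 to 4.83 in phenformin, Cd3g at background on all arrays and Cd3e at 6.53 ± 0.23, 6.53 ± 0.12 and 6.24 ± 0.19. Of 8 endothelial markers 1 rose with each treatment, with a mean level of 4.24 to 4.40 in LA, 4.25 to 4.60 in CLA and 4.27 to 4.41 in phenformin, Tek, Vwf and Emcn at background throughout and Pecam1 at 3.77 ± 0.09, 3.85 ± 0.39 and 3.63 ± 0.19.

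The stretches before the starts of 4 genes that rose with CLA are shown because they hold the letters of motifs that inflammatory transcription factors are known to bind. Sequences are from RefSeq on GRCm38.p6, 5' to 3' on the gene's own strand, 250 bases ending just before the annotated start, with the matched letters in capitals. Il6 lies at chr5:30012864-30013113 on the plus strand and holds an AP-1 match (TGAGTCA), a C/EBP match on the other strand (TTGTGCAA) and a kappa-B match (GGGATTTTCC). Lif lies at chr11:4257318-4257567 on the plus strand with an AP-1 match (TGACTCA) and a kappa-B match (GGGACGCCCC). Csf1 lies at chr3:107760470-107760719 on the minus strand with a kappa-B match on the other strand (GGAAAGTCCC), and Socs3 at chr11:117969367-117969616 on the minus strand with a STAT match (TTCTTAGAA).
Il6: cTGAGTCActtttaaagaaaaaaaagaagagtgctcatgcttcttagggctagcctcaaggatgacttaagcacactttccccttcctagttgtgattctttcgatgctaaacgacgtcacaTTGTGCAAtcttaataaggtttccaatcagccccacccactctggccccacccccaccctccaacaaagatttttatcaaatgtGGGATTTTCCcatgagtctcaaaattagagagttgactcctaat
Lif: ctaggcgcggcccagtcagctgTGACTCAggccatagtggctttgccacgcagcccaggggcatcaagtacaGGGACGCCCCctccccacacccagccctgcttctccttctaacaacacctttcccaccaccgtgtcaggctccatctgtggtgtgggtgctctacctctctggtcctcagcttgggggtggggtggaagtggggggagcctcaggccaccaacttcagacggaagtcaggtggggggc
Csf1: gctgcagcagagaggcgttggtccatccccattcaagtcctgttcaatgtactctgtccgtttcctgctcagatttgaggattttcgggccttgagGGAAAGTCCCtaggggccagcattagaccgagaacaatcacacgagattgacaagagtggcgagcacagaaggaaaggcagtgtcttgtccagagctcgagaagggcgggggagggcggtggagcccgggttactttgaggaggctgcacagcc
Socs3: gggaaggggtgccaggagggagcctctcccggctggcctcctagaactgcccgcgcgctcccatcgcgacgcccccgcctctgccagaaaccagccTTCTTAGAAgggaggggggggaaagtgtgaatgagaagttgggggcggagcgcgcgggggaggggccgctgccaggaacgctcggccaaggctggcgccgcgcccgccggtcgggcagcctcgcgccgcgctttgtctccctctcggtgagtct

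Motifs were searched on both strands as AP-1 TGANTCA, STAT TTCNNNGAA, C/EBP TTGCNNAA and the kappa-B motif, in windows of 300 bases that also include 50 bases from the start onward. Windows were found for 9 of the 10 genes, 11 windows in all. AP-1 matches were in windows of 4 genes (Il6, Lif, Il11 and Osmr), kappa-B matches in 3 (Il6, Lif and Csf1), C/EBP matches in 2 (Il6 and Csf2) and a STAT match in 1 (Socs3). Matches did not overlap each other. Il6st and Lifr had none of the 4 motifs. Among 32851 promoter windows of the same length, 7.81% held the AP-1 letters, 8.30% the STAT letters, 10.8% the C/EBP letters and 8.46% the kappa-B motif. A match describes these letters only. Along the chromosomes, the protein-coding gene next to Lifr is Osmr on chromosome 15, that next to Lif is Osm on chromosome 11, Csf2 on chromosome 11 neighbours Il3, and Il6st on chromosome 13 neighbours Il31ra.

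Among the ligands, Il6, the cytokine that gives the family its name, was at 3.32, 3.24 and 4.29 on the LA arrays, 5.78, 5.67 and 6.54 on the CLA arrays and 5.58, 6.25 and 6.11 on the phenformin arrays. The treated arrays all lay above the LA arrays, and 2 of the 3 LA values were at background. The third, on LA replicate 3, was 4.29 where the background of that array was 4.20. The folds against LA use all 3 values as deposited and are approximate, since only 1 LA value lay above background. Il6 rose 5.19-fold with CLA (2.38 ± 0.31, adjusted p = 0.00055) and 5.14-fold with phenformin (2.36 ± 0.31, adjusted p = 0.000656). Both comparisons use the same LA arrays. Between phenformin and CLA the difference was -0.02, with a 95% interval of -0.71 to 0.68. With pyruvate carboxylase as covariate, Il6 still rose by 1.55 (adjusted p = 0.0265) and 1.48 (adjusted p = 0.0434). These were the lowest values over the alternative settings, and the highest were 2.71 and 2.70.

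Lif, leukemia inhibitory factor, which signals through Lifr and gp130, was at 4.21, 4.48 and 4.62 with LA, 5.74, 5.99 and 5.34 with CLA and 4.61, 4.75 and 4.39 with phenformin. The CLA arrays stood above all others, while the phenformin arrays overlapped the LA arrays. Its LA and phenformin values were low, under the median of all values on the arrays (5.07). Lif rose 2.39-fold with CLA (1.25 ± 0.18, adjusted p = 0.000947). With phenformin the difference from LA was 0.15, with an interval of -0.25 to 0.55 (adjusted p = 0.667), and Lif was 2.16-fold lower than with CLA (-1.11 ± 0.18, adjusted p = 0.00728). The mean of both Lif probe sets gave -0.72 for that difference (adjusted p = 0.0118). The second probe set was at background on all LA arrays and passed the test in no comparison.

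Il11, another gp130 ligand, was at 4.76, 4.56 and 5.11 with LA, 4.07, 4.34 and 4.57 with CLA and 4.56, 4.32 and 4.56 with phenformin. The 3 groups overlapped. The difference from LA was -0.48 with CLA (interval -0.86 to -0.10, adjusted p = 0.0856) and -0.33 with phenformin (interval -0.71 to 0.05, adjusted p = 0.238). Without CLA replicate 3 the CLA difference was -0.60 and passed the test (adjusted p = 0.0445), as it did with array weights (-0.48, adjusted p = 0.0347).

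Csf1, the macrophage colony stimulating factor, was at 7.08, 7.18 and 7.19 on the LA arrays, 9.73, 9.77 and 9.71 with CLA and 9.27, 9.27 and 9.07 with phenformin. No array of any group overlapped another group. Csf1 rose 6.02-fold with CLA (2.59 ± 0.11, adjusted p = 3.27e-07) and 4.15-fold with phenformin (2.05 ± 0.11, adjusted p = 3.15e-06), and was 1.45-fold lower with phenformin than with CLA (-0.54 ± 0.11, adjusted p = 0.0181). Its other 3 probe sets rose in both comparisons with LA as well, by 0.75, 3.03 and 1.58 with CLA and by 0.56, 2.21 and 1.79 with phenformin. The probe sets thus disagreed on size by more than their errors, and the difference between phenformin and CLA ran from -0.82 to 0.20 over the 4 of them. That difference lost its call without CLA replicate 1 (adjusted p = 0.0661), CLA replicate 2 (0.0640), phenformin replicate 1 (0.0511), phenformin replicate 2 (0.0570) or phenformin replicate 3 (0.0690), and with the mean of all probe sets (-0.34, adjusted p = 0.172).

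Csf2, the granulocyte-macrophage factor, was at 5.16, 5.30 and 5.12 with LA, 5.11, 5.12 and 5.12 with CLA and 5.10, 4.87 and 4.68 with phenformin. The phenformin arrays lay below all others, the highest by a narrow margin, but no difference passed the test. It was -0.08 for CLA against LA (interval -0.35 to 0.20, adjusted p = 0.743) and -0.31 for phenformin against LA (interval -0.58 to -0.03, adjusted p = 0.130). Against CLA, phenformin differed by -0.23 (interval -0.51 to 0.05, adjusted p = 0.403).

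Csf3, the granulocyte factor, was at 4.24, 4.20 and 4.34 with LA, 4.90, 4.57 and 4.89 with CLA and 3.95, 4.41 and 4.05 with phenformin, where 1 array was at background. The CLA arrays stood above the others by small margins. All values of Csf3 were low, under the median of all values on the arrays (5.07). Csf3 rose 1.44-fold with CLA (0.52 ± 0.15, adjusted p = 0.0334), differed from LA by -0.12 with phenformin (interval -0.45 to 0.20, adjusted p = 0.652) and was 1.57-fold lower with phenformin than with CLA (-0.65 ± 0.15, adjusted p = 0.0330). Its rise with CLA lost the call without LA replicate 1 (adjusted p = 0.0928), LA replicate 2 (0.0945), CLA replicate 1 (0.124) or CLA replicate 3 (0.0783), with median centring (0.0562) and with the covariate (0.253). Its difference between phenformin and CLA lost the call without LA replicate 1 (0.0523), LA replicate 2 (0.0534), CLA replicate 1 (0.136), CLA replicate 3 (0.0703), phenformin replicate 1 (0.128) or phenformin replicate 3 (0.102), in a fit of those 2 groups (0.0600), with median centring (0.0524) and with quantile normalization (0.0525).

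**Figure D1:**
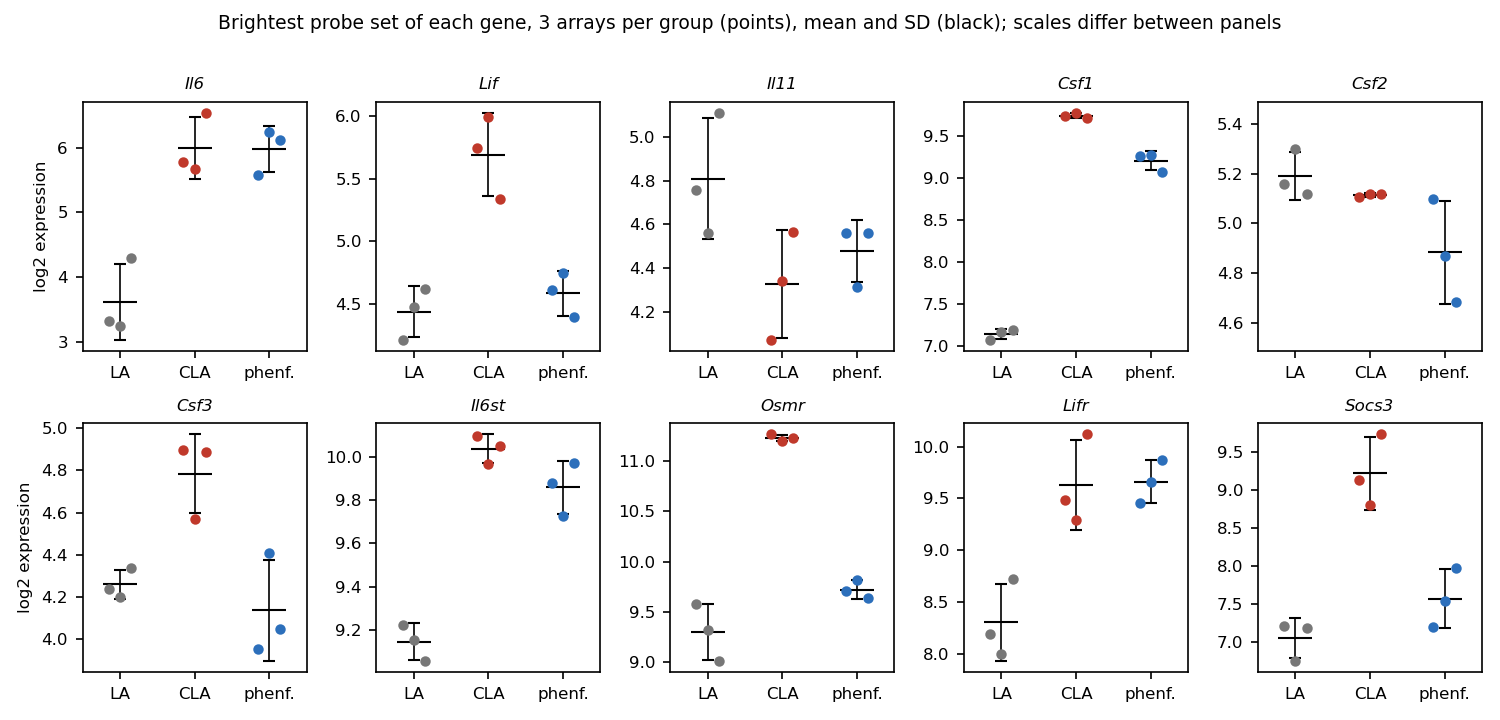
Log2 expression of the brightest probe set of each of the 10 genes on 3 arrays per group (points: LA grey, CLA red, phenformin blue), with mean and SD in black and a scale of its own in each panel. The phenformin arrays sit with the CLA arrays for Il6 and Lifr and near the LA arrays for Lif, Osmr and Socs3, and Csf1 has 3 separate levels.

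Of the receptor chains, Il6st (gp130) was at 9.22, 9.15 and 9.05 with LA, 10.10, 9.97 and 10.05 with CLA and 9.88, 9.73 and 9.97 with phenformin. Both treated groups lay above LA and overlapped each other. Il6st rose 1.86-fold with CLA (0.90 ± 0.11, adjusted p = 0.000382) and 1.64-fold with phenformin (0.72 ± 0.11, adjusted p = 0.0016), and phenformin differed from CLA by -0.18 (interval -0.43 to 0.07, adjusted p = 0.473). After quantile normalization the rise with phenformin was 0.46 (adjusted p = 0.0199). Of its other 3 probe sets, 2 rose in both comparisons with LA, and the third differed by 0.78 (adjusted p = 0.0556) and 0.59 (adjusted p = 0.142).

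Lifr, the chain that binds LIF, was at 8.19, 8.0 and 8.72 with LA, 9.49, 9.29 and 10.12 with CLA and 9.45, 9.66 and 9.87 with phenformin. Here too the treated arrays lay above LA and overlapped. Lifr rose 2.51-fold with CLA (1.33 ± 0.24, adjusted p = 0.00336) and 2.56-fold with phenformin (1.35 ± 0.24, adjusted p = 0.00318), and phenformin differed from CLA by 0.03 (interval -0.50 to 0.55, adjusted p = 0.970). A second probe set rose in both (1.0 and 1.1) and the third did not pass the test (0.39 and 0.25). With that covariate the differences were 0.70 (adjusted p = 0.140) and 0.69 (adjusted p = 0.185), and the mean of the probe sets rose by 0.90 with phenformin (adjusted p = 0.0032).

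Osmr, the chain that binds oncostatin M, was at 9.58, 9.31 and 9.01 with LA, 11.27, 11.20 and 11.23 with CLA and 9.71, 9.82 and 9.63 with phenformin. The 3 CLA arrays lay within a narrow range far above the rest, and the phenformin arrays lay just above LA without overlap. Osmr rose 3.82-fold with CLA (1.93 ± 0.14, adjusted p = 1.48e-05) and was 2.86-fold lower with phenformin than with CLA (-1.51 ± 0.14, adjusted p = 0.000348). With phenformin the difference from LA was 0.42 (interval 0.10 to 0.74, adjusted p = 0.0734), and without LA replicate 1 it was 0.56 and called (adjusted p = 0.0268). A second probe set gave 2.08, 0.18 and -1.90 for CLA against LA, phenformin against LA and phenformin against CLA. The third, at background on 2 of 3 LA arrays, gave 0.60, 0.53 and -0.07 and passed no test.

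Socs3, the feedback inhibitor that STAT3 induces, was at 7.21, 6.75 and 7.18 with LA, 9.13, 8.80 and 9.74 with CLA and 7.20, 7.54 and 7.97 with phenformin. Every CLA array was above every other array, and phenformin overlapped LA. Socs3 rose 4.51-fold with CLA (2.17 ± 0.26, adjusted p = 0.000286) and was 3.14-fold lower with phenformin than with CLA (-1.65 ± 0.26, adjusted p = 0.0057). Against LA, phenformin differed by 0.52 (interval -0.05 to 1.09, adjusted p = 0.215), by 0.66 with the mean of its probe sets (adjusted p = 0.0257) and by -0.14 with the covariate (adjusted p = 0.855). The brightest probe set is of a type (suffix x) whose probes can also match other transcripts. The probe set without that suffix gave 2.36, 0.59 and -1.77 for the comparisons in the same order, with adjusted p of 6.67e-05, 0.102 and 0.00194.

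**Figure D2:**
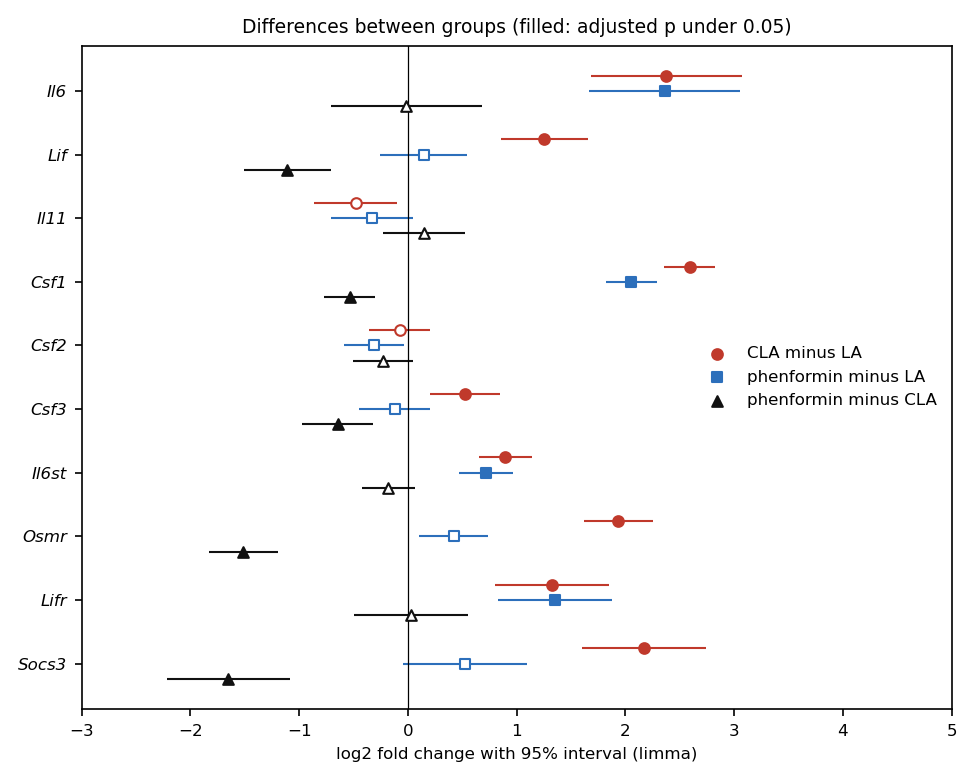
Log2 fold change of each gene with its 95% interval from limma, for CLA minus LA (red circles), phenformin minus LA (blue squares) and phenformin minus CLA (black triangles), filled where the adjusted p is under 0.05. Il6, Csf1, Il6st and Lifr have filled symbols in both comparisons with LA, and Lif, Csf3, Osmr and Socs3 have them for CLA but not for phenformin.

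Counted over the family, 8 of 10 genes were called higher with CLA than with LA and 0 lower, where 12.6% of all genes were called higher and 7.58% lower (9 of the 10 had an unadjusted p under 0.05). The median log2 fold change was 1.29 over the 10 genes and 0.05 over all genes. Because the 10 genes were chosen with earlier results of these data known, the values over all genes give no test of the family. With phenformin against LA, 4 were called higher and 0 lower, against 13.7% and 5.11% of all genes (6 of the 10 had an unadjusted p under 0.05), and the median was 0.47 against 0.01. In the direct comparison of phenformin with CLA, 0 were called higher and 5 lower (Lif, Csf1, Csf3, Osmr and Socs3; the same number had an unadjusted p under 0.05), against 3.95% and 2.35% of all genes, with a median of -0.38 against -0.03. Of the called genes in all comparisons, 62.5%, 72.9% and 62.7% were higher in the order CLA against LA, phenformin against LA and phenformin against CLA. After quantile normalization those shares were 45.0%, 45.4% and 49.6%, while 8, 4 and 4 of the 10 genes were called.

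By probe set, 17 of 23 were called higher with CLA than with LA, 10 of 23 with phenformin than with LA and 8 of 23 lower with phenformin than with CLA. The same shares over all probe sets were 10.1%, 11.5% and 1.68%. In sign, 21 of 23 were above 0 for CLA and 20 for phenformin against LA. Probe sets of the same gene are repeated measures: by gene, 8 and 7 of the 10 were above 0. Over all 18193 genes, 10366 were above 0 for CLA and 9381 for phenformin. All 4 probe sets of Csf1 and all 3 of Socs3 were called higher with CLA, whereas Lif, Osmr, Il6st and Lifr each had 1 probe set that was not. In the authors' deposited tables the same numbers of these probe sets, 17, 10 and 8, had an adjusted p under the threshold. Those tables hold the same log2 fold changes to within 4.6e-08, so the equal counts are no separate support.

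**Figure D3:**
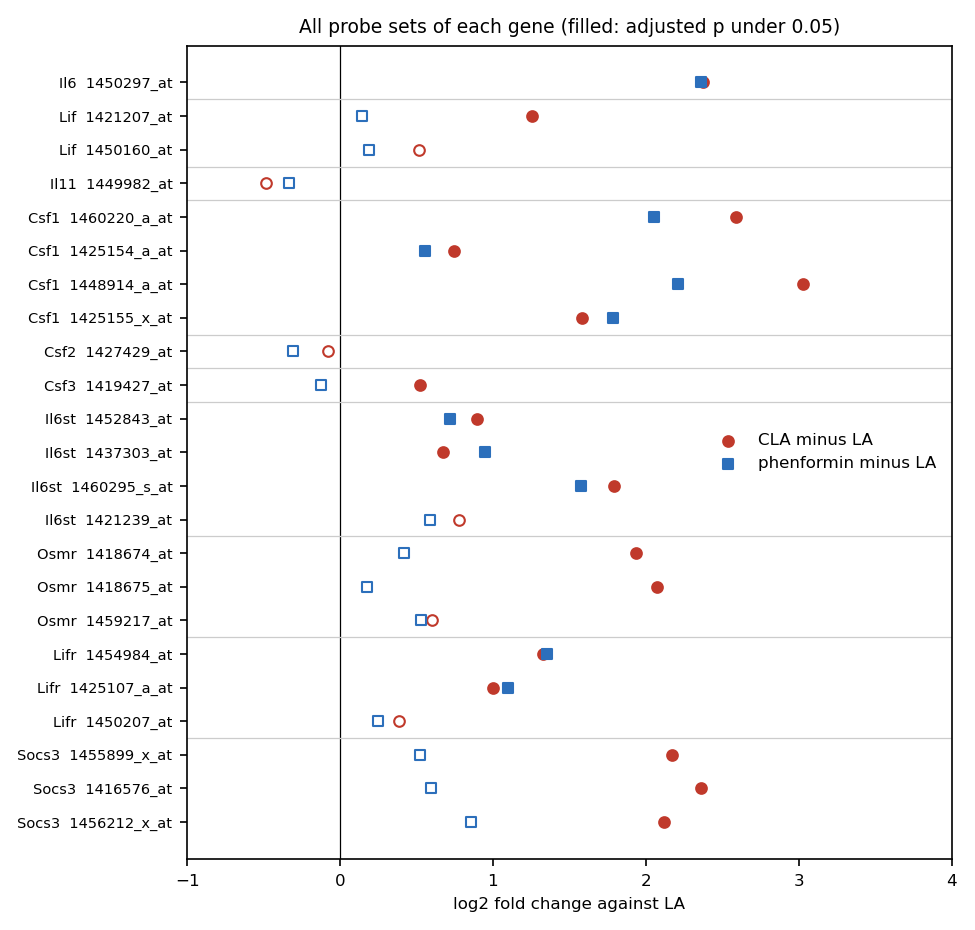
Log2 fold change against LA of all 23 probe sets, grouped by gene, for CLA (red circles) and phenformin (blue squares), filled where the adjusted p is under 0.05. The 3 probe sets of Socs3 lie between 2.12 and 2.36 for CLA and between 0.52 and 0.86 for phenformin, while those of Csf1 spread from 0.75 to 3.03 for CLA.

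The remaining genes of the pathway were counted in 5 lists, of which 52 of 57 genes were measured and the others are not analysed here. With CLA 20 rose and 4 fell, where 12.6% and 7.58% of all genes did, and with phenformin 17 rose and 3 fell, where 13.7% and 5.11% did. Against CLA, phenformin had 2 higher and 6 lower, beside 3.95% and 2.35% of all genes. Like the 10 genes, these lists were chosen with earlier results of these data known. Among 8 other ligands only Clcf1, which signals through the CNTF receptor, Lifr and gp130, was called. It was at 5.97, 6.08 and 5.86 with LA, 9.81, 9.79 and 9.94 with CLA and 6.67, 6.62 and 6.94 with phenformin, so the 3 groups were separate. Clcf1 rose 14.7-fold with CLA (3.88 ± 0.12, adjusted p = 1.24e-07) and 1.71-fold with phenformin (0.77 ± 0.12, adjusted p = 0.0019), and was 8.60-fold lower with phenformin than with CLA (-3.10 ± 0.12, adjusted p = 1.4e-06). With the covariate its rise with phenformin was 0.59 (adjusted p = 0.0980). Osm, the ligand of Osmr, was at 6.12 ± 0.24, 5.74 ± 0.15 and 5.88 ± 0.10 in LA, CLA and phenformin and was not called, nor was Il34, the other ligand of Csf1r, at 4.52 ± 0.10, 4.61 ± 0.30 and 4.73 ± 0.30.

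Of 9 other receptors, limma called 0 in each comparison, with 1, 1 and 0 at an unadjusted p under 0.05 for CLA against LA, phenformin against LA and phenformin against CLA. In that order, 12.6%, 13.7% and 3.95% of all genes were called higher and 7.58%, 5.11% and 2.35% lower. With 9 genes, a count of 0 is not far from these shares. Il6ra, the chain that binds IL-6, was at 6.16, 6.55 and 6.43 with LA, 7.05, 6.88 and 6.45 with CLA and 6.60, 6.38 and 6.28 with phenformin. Csf1r was at 6.53 ± 0.06 in LA, 6.53 in CLA and 6.49 ± 0.06 in phenformin, with an interval for CLA against LA of -0.22 to 0.22. All 3 CLA arrays and phenformin replicate 3 held the same Csf1r value, so its SD in CLA was 0 and may understate the spread. Csf2rb, at background on 2 LA arrays and on all treated arrays, was at 3.78 ± 0.32, 3.42 ± 0.25 and 3.32 ± 0.18, and Csf3r was at 4.62 ± 0.08, 4.59 ± 0.09 and 4.39 ± 0.15. The receptors of Csf1, Csf2 and Csf3 were thus not called, and for Csf2rb the level at background limits what could be seen.

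In the JAK-STAT core, 2 of 9 genes rose and 2 fell with CLA, and 3 rose and 2 fell with phenformin, beside 12.6% and 7.58% of all genes with CLA and 13.7% and 5.11% with phenformin. The kinase Jak1 rose from 10.23 ± 0.21 in LA by 0.71 ± 0.15 with CLA (adjusted p = 0.00744) and by 1.07 ± 0.15 with phenformin (adjusted p = 0.000754). The mean of its probe sets rose by 1.29 and 1.74, and after quantile normalization the rise with CLA was 0.46 (adjusted p = 0.0259). Stat3, the transcription factor of the pathway, was at 9.34, 9.86 and 9.95 with LA, 11.14, 11.06 and 10.49 with CLA and 10.69, 10.55 and 10.49 with phenformin, all treated arrays above LA. It rose by 1.18 ± 0.20 with CLA (adjusted p = 0.00259) and by 0.86 ± 0.20 with phenformin (adjusted p = 0.015). The latter lost its call without LA replicate 1 (adjusted p = 0.0532) or phenformin replicate 1 (0.0615), with quantile normalization (0.153), the mean of probe sets (0.133) or the RNA length covariate (0.0811). By the mean of its probe sets Stat3 rose by 0.54 with CLA (adjusted p = 0.0045) and differed by 0.26 with phenformin.

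Stat5a, which acts downstream of Csf2, fell by 0.86 on the log2 scale with CLA (adjusted p = 0.00246) and by 0.83 with phenformin (adjusted p = 0.00328), calls that the mean of its probe sets did not keep (adjusted p = 0.0599 and 0.129). Gab1, a docking adaptor of gp130 signalling, rose by 0.62 ± 0.12 with phenformin (adjusted p = 0.00509) and was higher than with CLA by 0.90 ± 0.12 (adjusted p = 0.00238). Its rise against LA was 0.39 with quantile normalization (adjusted p = 0.101) and 0.70 with the covariate (adjusted p = 0.0576). Ptpn11, the phosphatase SHP2, differed by -0.48 with CLA (adjusted p = 0.0464) and -0.49 with phenformin (adjusted p = 0.0432). Each call was lost, however, without any of 8 single arrays, those other than LA replicate 3 (adjusted p of 0.0622 to 0.151 and of 0.0539 to 0.141). By the mean of its probe sets Ptpn11 differed by 0.35 and 0.34, and neither difference passed the test (adjusted p = 0.187 and 0.199). Grb2, the adaptor to the Ras pathway, was at 8.35 ± 0.23, 8.64 ± 0.31 and 8.78 ± 0.21 in LA, CLA and phenformin and was not called.

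Among 11 other feedback genes, 4 rose and 1 fell with CLA and 3 rose and 1 fell with phenformin, beside the shares of all genes given for the JAK-STAT core. Cish, a SOCS family member induced by STAT5, was at 8.07, 8.08 and 7.94 with LA, 7.30, 7.30 and 7.22 with CLA and 6.32, 6.86 and 6.68 with phenformin. It fell with both treatments, 1.69-fold with CLA (-0.76 ± 0.14, adjusted p = 0.00415) and 2.65-fold with phenformin (-1.41 ± 0.14, adjusted p = 0.000129), and its groups did not overlap. The difference of -0.65 between phenformin and CLA (adjusted p = 0.0270) lost its call without CLA replicate 1 (0.103), CLA replicate 2 (0.0969), phenformin replicate 1 (0.0786) or phenformin replicate 3 (0.0617). Socs5 rose by 0.97 ± 0.14 with CLA (adjusted p = 0.00104) and by 0.65 ± 0.14 with phenformin (adjusted p = 0.0101), and the mean of its probe sets rose by 0.58 and 0.42.

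The other calls among the feedback genes were lost under several settings. Socs2, an inhibitor of growth hormone signalling, rose by 0.82 ± 0.20 with CLA (adjusted p = 0.0168) and 0.83 ± 0.20 with phenformin (0.0157). The first was lost without LA replicate 1 (0.0675), CLA replicate 1 (0.0761) or CLA replicate 2 (0.0733), the second without LA replicate 1 (0.0615), phenformin replicate 1 (0.0694) or phenformin replicate 2 (0.0614), and both with quantile normalization (0.0614 and 0.0915). The mean of probe sets gave 0.09 and 0.22 and no call, and with the covariate the rises were 1.25 and 1.29, both called. Socs1, a close relative of Socs3, rose by 0.57 ± 0.16 with CLA (adjusted p = 0.0363), lost without LA replicate 1 (0.118), CLA replicate 1 (0.112), CLA replicate 3 (0.0908), phenformin replicate 1 (0.0571) or phenformin replicate 2 (0.0545). It was also lost in a fit of those 2 groups (0.0801), with median centring (0.0637), with quantile normalization (0.0531) and with the covariate, where the difference was 0.26 (0.508). Ptpn2, a phosphatase of JAK and STAT proteins, rose by 0.65 ± 0.18 with phenformin (adjusted p = 0.0297), lost without LA replicate 2 (0.0746), LA replicate 3 (0.0815), phenformin replicate 2 (0.0829) or phenformin replicate 3 (0.0987). With quantile normalization it differed by 0.38 (0.120) and with the covariate by 0.34 (0.498). Socs6, a further SOCS family member named after its values were seen, was higher with CLA by 0.46 ± 0.14 (adjusted p = 0.0490), a call lost in 15 of 18 alternative settings, among them every single array left out except LA replicate 1 and CLA replicate 1 (0.0655 to 0.148). The mean of its probe sets gave 0.16 (0.646) and array weights gave 0.29 (0.127). Socs7 was at 7.0 ± 0.10, 6.84 ± 0.20 and 7.38 ± 0.19 in LA, CLA and phenformin and was not called.

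Of 15 genes known as STAT3 targets in other settings, 13 rose and 1 fell with CLA, and 10 rose and 0 fell with phenformin (11 had an unadjusted p under 0.05), where 12.6% and 7.58% of all genes did with CLA and 13.7% and 5.11% with phenformin. Their median log2 fold change was 1.67 with CLA and 1.29 with phenformin. Most of these genes also answer to other transcription factors, such as NF-kappa-B and AP-1, and the list does not measure STAT3 activity. Saa3, an acute phase protein of fat tissue and macrophages, was at 5.44, 5.47 and 6.49 with LA, 12.83, 12.77 and 12.81 with CLA and 12.52, 12.60 and 12.58 with phenformin. Saa3 rose by 7.0 ± 0.23 with CLA (adjusted p = 1.35e-07) and by 6.77 ± 0.23 with phenformin (adjusted p = 6.87e-07).

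Timp1, an inhibitor of matrix proteases, rose by 2.97 ± 0.16 and 2.9 ± 0.16 with CLA and phenformin, Fos by 2.5 ± 0.29 and 2.45 ± 0.29, and Bcl3, a nuclear cofactor of NF-kappa-B, by 1.67 ± 0.14 and 1.29 ± 0.14. Junb, an AP-1 subunit, rose by 3.48 ± 0.16 and 1.76 ± 0.16 and was 3.29-fold lower with phenformin than with CLA (-1.72 ± 0.16, adjusted p = 0.000304). Cebpd, a C/EBP factor of the acute phase, rose by 2.27 ± 0.14 and 1.48 ± 0.14 and was lower with phenformin than with CLA by 1.73-fold (-0.79 ± 0.14, adjusted p = 0.00961), a difference with an adjusted p of 0.0508 without phenformin replicate 2. Orm1 and Hp, acute phase proteins named after their values were seen, were the exceptions with CLA: Orm1 fell by 0.97 on the log2 scale (adjusted p = 0.00482), and Hp, at 12.71 ± 0.33 in LA against 13.04 ± 0.06 after CLA, was not called. Between phenformin and CLA, 4 genes of the list were lower and 1, Orm1, was higher by 0.79, beside 2.35% of all genes lower and 3.95% higher. The Orm1 call was lost in 7 of 18 alternative settings. It was lost with the replicate block (adjusted p = 0.0787) and without LA replicate 1 (0.0598), CLA replicate 1 (0.145) or CLA replicate 2 (0.154). The same held without phenformin replicate 1 (0.132), phenformin replicate 2 (0.0790) or phenformin replicate 3 (0.112).

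**Figure D4:**
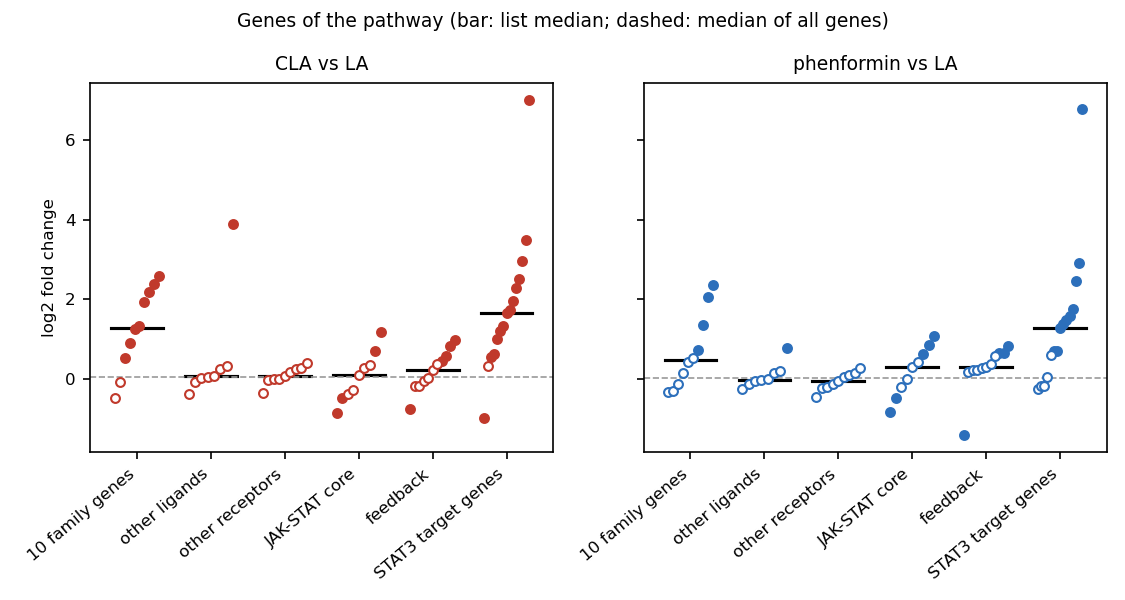
Log2 fold change against LA of the 10 family genes and of the genes of the 5 pathway lists, 1 point per gene, filled where the adjusted p is under 0.05, with the list's median as a bar and the median of all genes dashed. The STAT3 target genes have a median of 1.67 with CLA and 1.29 with phenformin, whereas no point of the other receptors is filled and Clcf1 stands alone among the other ligands.

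Likeness of pattern was described by Pearson's correlation over the 9 arrays, which share their groups, so that genes with the same pattern over the 3 groups score high. Il6 and Lif, both called with CLA, correlated at 0.508. Among the family itself, Il6 and Lifr were most alike (r = 0.987), Csf1 followed Il6st (r = 0.970) and Il6 (r = 0.924), and Socs3 followed Osmr (r = 0.930), as did Lif (r = 0.903). Over genes with more than the median spread, those most like Il6 were Dok1 (r = 0.988), Lifr and Jpt2 (r = 0.986), and those most like Lifr were Il6, Dok1 (r = 0.985) and Eda2r (r = 0.977). Those most like Csf1 were Mmp13 (r = 0.996), Tpbg (r = 0.993) and Serpinf1 (r = 0.992), and for Il6st they were Plscr1 (r = 0.987), Snhg1 and Acta2 (both r = 0.984). Osmr was most like Dusp1, Lpin2 (both r = 0.991) and Slc39a6 (r = 0.986), Lif most like Tes (r = 0.987), Tmem86a (r = 0.985) and Sema4b (r = 0.979), and Socs3 most like Trib2 (r = 0.978), Ier2 (r = 0.974) and Cdca7 (r = 0.972). For Il11 and Csf2, called in no comparison, the closest were Timeless (r = 0.980), Zg16 and 9430015G10Rik (both r = 0.960) for Il11, and Pphln1 (r = 0.926), Extl3 (r = 0.921) and Zxdc (r = 0.913) for Csf2. Csf3 was most like Gm2115 (r = 0.980), Fosl2 (r = 0.962) and Cdk5r1 (r = 0.960).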

How the data were processed

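Total RNA of 9 cultures was hybridized to Affymetrix mouse arrays, 1 array per sample. The authors deposited RMA summaries of each probe set on a log2 scale, and the submitters' processing notes name R 2.9.0 for this step. Per the file headers, the authors' deposited limma tables hold log2 fold changes, moderated t and log odds (a score each), and p-values, raw and adjusted. Their limma version: not given in the sources used here. Their log2 fold changes differed from those computed here by at most 4.6e-08.

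The 64 control probe sets were left out. A single limma fit (version 3.58.1, R 4.3.3; lmFit and eBayes) over 9 arrays and 3 groups gave 3 two-sided contrasts, Benjamini-Hochberg adjusted over 45037 probe sets with a threshold of 0.05. Of these probe sets 34945 had 1 symbol, 932 several and 9160 none here. Each gene was read from its probe set with the highest 9-array mean. Steps were tested on simulated data with known answers. With 3 arrays against 3, exact permutation gives no p below 0.1. The number of arrays limits the precision.

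Members and lists were chosen with earlier results of these data known. Named pathway genes were, per list, up to 4 called genes with the smallest adjusted p for CLA against LA, up to 2 others for phenformin against LA, and a fixed set of receptors, ligands and markers; likeness named 3 genes per member. Promoter letters came from RefSeq windows (GRCm38.p6). Plots used Python 3.11.15, pandas 2.3.3 and matplotlib 3.10.9. Alternatives tried were leaving out each array, a replicate block, the 2 groups alone, median centring, quantile normalization, a filter to 23938 brighter probe sets, trend with robust estimation, array weights, the mean of probe sets, the 3' minus 5' covariate and a 2-fold minimum. Hybridization dates or batches were not used here.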

Additional observations from a re-analysis of the deposited data

How the results depend on the processing

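Of 534 recomputed fold changes of the 10 genes, 493 kept their direction and their side of the threshold, 25 lost a call, 4 gained one and 12 changed sign; for named pathway genes these were 613 of 702 kept, 87 lost and 2 changed in sign. Some settings could alter only the call and not the fold change, so direction was bound to be kept there. These were the replicate block, the 2 groups alone, trend with robust estimation and leaving out an array of the group not compared. Leaving out single arrays gave 7 to 8 called members for CLA against LA (8 with all arrays), 4 to 5 for phenformin against LA (4) and 3 to 5 for phenformin against CLA (5), the lowest without CLA replicate 1, phenformin replicate 1 or phenformin replicate 3. A 2-fold minimum left 6, 3 and 3 of them, and 13, 10 and 3 of the 24, 20 and 8 called pathway genes. The 3' minus 5' covariate left 6, 3 and 5 members and 19, 14 and 9 pathway genes. With the filter to brighter probe sets 7, 4 and 4 members were called, and Csf3 and Il11 were removed by it. Sign changes were in differences that had not passed the test: Il6 between phenformin and CLA, at 0.26 without CLA replicate 3, 0.19 without phenformin replicate 1, 0.024 with median centring and 0.073 with array weights (-0.18 to 0.26 over all single arrays left out); Lifr in that comparison, at -0.04 without CLA replicate 1, -0.14 without CLA replicate 2, -0.07 without phenformin replicate 3, -0.043 with quantile normalization, -0.0017 with the mean of probe sets and -0.0083 with the covariate (-0.14 to 0.27 over all single arrays left out); Csf2 for CLA against LA (0.089) and Socs3 for phenformin against LA (-0.14) with the covariate. Ptpn11, which was called, turned to 0.35 and 0.34 with the mean of its probe sets, and neither of these passed the test. The causes were not tested. With the covariate, 2278 genes in place of 3675 were called for CLA against LA and 1651 in place of 3422 for phenformin against LA. For phenformin against CLA the 1147 called genes became 463 to 1718 without single arrays and 2428 with array weights, and a 2-fold minimum left 1227, 1074 and 333 genes in the 3 comparisons. The replicate numbers are not known to pair the samples: of 9 same-numbered pairs of arrays, 2 had deviations correlated over 0.1 (range -0.285 to 0.582), and 3 of 9 arrays correlated best with their own number. With the replicate number as a block, 7, 4 and 4 members and 22, 20 and 9 pathway genes were called; the member calls lost were those of Csf3 (adjusted p = 0.0597 and 0.0683). With the maximum of the control probe sets as background, 4 members in LA, 1 in CLA and 3 in phenformin were at background on all arrays of the group, in place of 0, so signal over background limits the low genes.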
